A study of Mus musculus with 38 samples.

Results

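In accessible chromatin of the mouse cortical collecting duct (CCD), 3174 of 270806 ATAC-seq peaks were strong peaks away from annotated promoters. They were the peaks annotated as intron or intergenic whose mean log2 signal over both groups was 8 or more and whose dDAVP-minus-saline difference in log2 signal lay above -1.2 and below 0.5. All 234060 intron and intergenic peaks are called distal below, and 3716 promoter peaks of the same strength serve as the comparison. The members were chosen by their signal and by their change between the groups, so both are given as a description.

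ATAC-seq reads the DNA that a transposase can reach. C57BL/6 wild-type mice received saline (3 libraries) or dDAVP (3 libraries), the vasopressin V2 receptor agonist desmopressin, for 5 days, and CCD segments were dissected by hand. Each ATAC-seq reaction held 3 segments. The deposited peak table gives the mean of each group and not the single libraries, so no spread between libraries stands behind a peak's value, and the p-values are the authors' own. RNA-seq of CCDs from wild-type mice under saline (4 libraries) or dDAVP (4 libraries) for 5 days gave transcript levels in TPM, a unit scaled by transcript length and by library. A further RNA table compared wild-type mice (WT, 4 units) with mice mutated at serine 552 of beta-catenin (MT, 4 units), each unit the mean of 3 libraries. The labels of that table's libraries all name dDAVP and C57BL/6 while the table itself is named as without vasopressin, so its WT values are used here as a level and not as a treated or untreated state.

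Open chromatin outside promoters holds enhancers, insulators and unlisted transcript starts. Genes that define a cell type often have several strong distal sites, each of which can bind several transcription factors. In the collecting duct, principal cells reabsorb water and sodium under vasopressin and aldosterone, and intercalated cells move acid and base. Vasopressin acts through its V2 receptor, cyclic AMP and protein kinase A, whose targets include the CREB factors and beta-catenin.

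Many of the strongest members lay over a gene start that the table does not label as a promoter. Each peak carries 1 label while it spans many bases, and why these starts went unlabelled was not tested. Members held 786 whole RefSeq start windows, each 250 bases before and 50 after a listed start, in 680 peaks. The 250 bases before a listed start are shown for 6 genes, read 5′ to 3′ on the gene's strand. Coordinates are mm10, from RefSeq (GRCm38.p6). For Ctnnb1 and Casz1 the stretch runs past the gene's outer start (120933400 and 148804366), so part of it lies in the gene. Cic, Rassf7 and Klf11 are among the genes whose start lies in a very strong member, Btg2 and Casz1 are among the genes with most members, and Ctnnb1 encodes beta-catenin. Capitals mark the GC box (GGGCGG, the letters bound by SP and KLF factors), the CCAAT box (CCAAT, bound by NF-Y), the ETS core (GGAAGT) and the full CREB site (TGACGTCA), each on either strand.
Cic, chr7:25267449-25267698, + strand: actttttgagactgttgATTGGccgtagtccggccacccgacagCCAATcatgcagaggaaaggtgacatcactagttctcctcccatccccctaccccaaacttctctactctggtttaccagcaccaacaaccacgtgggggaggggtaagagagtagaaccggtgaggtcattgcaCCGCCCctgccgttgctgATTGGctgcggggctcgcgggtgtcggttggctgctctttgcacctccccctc
Rassf7, chr7:141215610-141215859, + strand: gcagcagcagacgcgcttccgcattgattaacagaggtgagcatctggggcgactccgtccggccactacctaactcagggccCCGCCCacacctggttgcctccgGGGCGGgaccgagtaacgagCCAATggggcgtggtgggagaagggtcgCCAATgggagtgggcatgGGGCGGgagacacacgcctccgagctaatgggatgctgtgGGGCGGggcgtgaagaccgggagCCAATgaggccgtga
Klf11, chr12:24651121-24651370, + strand: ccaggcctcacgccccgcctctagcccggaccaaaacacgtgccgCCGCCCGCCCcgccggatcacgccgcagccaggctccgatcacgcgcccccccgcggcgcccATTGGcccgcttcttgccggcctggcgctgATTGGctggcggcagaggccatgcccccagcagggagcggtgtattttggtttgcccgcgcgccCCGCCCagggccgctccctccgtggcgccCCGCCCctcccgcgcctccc
Btg2, chr1:134079156-134079405, - strand: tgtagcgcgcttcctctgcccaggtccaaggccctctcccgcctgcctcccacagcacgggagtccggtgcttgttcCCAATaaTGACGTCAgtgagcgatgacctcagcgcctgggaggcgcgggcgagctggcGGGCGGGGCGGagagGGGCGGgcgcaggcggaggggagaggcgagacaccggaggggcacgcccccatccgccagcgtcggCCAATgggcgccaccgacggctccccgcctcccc
Ctnnb1, chr9:120933328-120933577, + strand: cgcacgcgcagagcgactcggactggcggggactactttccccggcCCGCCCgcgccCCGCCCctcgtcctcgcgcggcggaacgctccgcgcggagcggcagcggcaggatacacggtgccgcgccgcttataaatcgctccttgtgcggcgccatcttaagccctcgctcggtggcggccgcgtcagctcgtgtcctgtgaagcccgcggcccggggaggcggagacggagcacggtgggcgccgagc
Casz1, chr4:148804142-148804391, + strand: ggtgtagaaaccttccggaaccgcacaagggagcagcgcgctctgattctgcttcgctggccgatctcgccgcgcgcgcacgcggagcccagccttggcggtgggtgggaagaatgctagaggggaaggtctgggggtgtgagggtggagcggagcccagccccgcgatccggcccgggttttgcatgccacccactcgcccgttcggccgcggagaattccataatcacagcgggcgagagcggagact
The Rassf7 and Klf11 stretches each held 4 GC boxes, that of Btg2 held 3 and that of Ctnnb1 held 2. The Btg2 stretch also held 1 full CREB site beside a CCAAT box. The Casz1 stretch held none of the 4 motifs, although 66.8% of its bases were G or C. Over the 786 windows, 73.3% held a GC box, against 79.0% of the 4247 windows inside strong promoter peaks and 35.7% of all 32851 windows. A CCAAT box was in 35.4%, 43.9% and 37.4% of them, and a full CREB site in 2.93%, 3.32% and 1.79%. The AP-1 letters (TGANTCA) were in 5.22% of the members' windows, in 3.25% of the strong promoter windows and in 7.81% of all windows. The median window inside a member held 63.3% G or C and 23 CpG dinucleotides, against 52.7% and 7 over all windows. A match of letters is not a bound site, and other members could not be searched because only start windows were at hand.

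**Figure D1:**
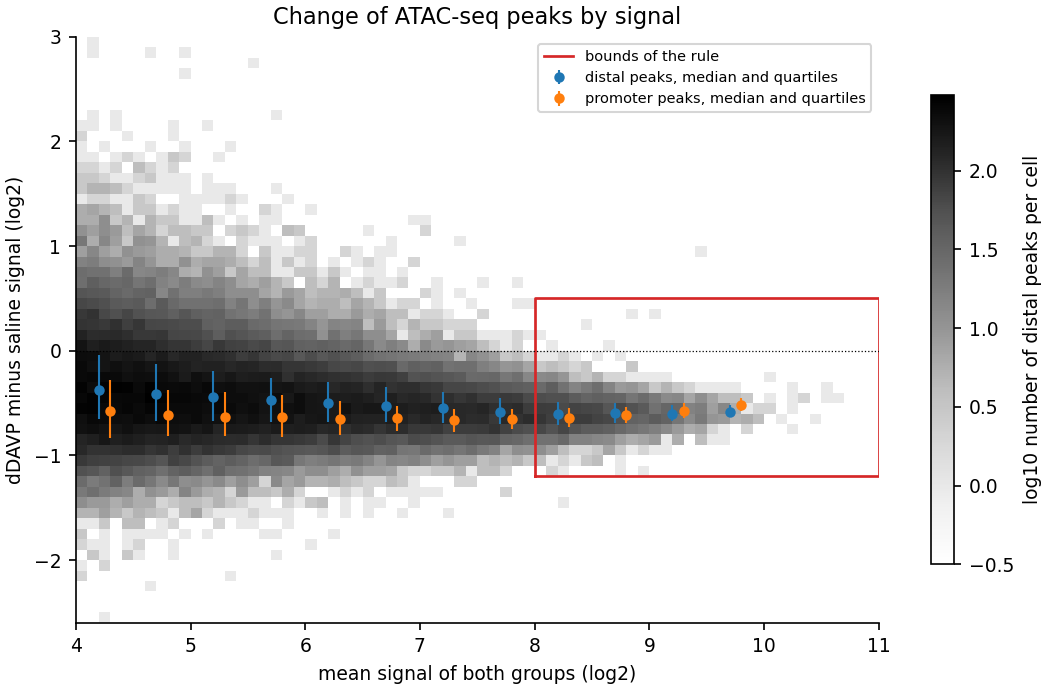
Difference of ATAC-seq signal (dDAVP minus saline, log2) against the mean signal of both groups (log2) for distal peaks of mean signal 4 or more, with grey shade giving the number of peaks per cell on a log10 scale. Points are medians of distal (blue) and promoter (orange) peaks in bands of 0.5 with quartiles as bars, and the red box marks the rule. Inside the box, nearly all distal peaks lie below 0, near the promoter peaks of the same strength.

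The name under which these peaks were set apart, strong distal peaks without large change, holds only within the width of the window, since 3168 of the 3174 members had lower signal with dDAVP. Their median difference was -0.60 on the log2 scale (quartiles -0.69 and -0.50), a ratio of 0.660, from a median log2 signal of 8.75 with saline to 8.14 with dDAVP. The authors' test called 1918 members (60.4%) lower and 2 higher at an adjusted p below 0.05, where it called 5.98% of all peaks lower and 0.846% higher. Signal and change both entered the choice of members, so these shares are given as a description and read no further. The window on change removed only 2 of the 3176 strong distal peaks. Strong promoter peaks had the same median difference of -0.60, and the authors called 72.8% of them lower. Distal peaks of mean signal 6 to 8 had a median of -0.53, those of 4 to 6 had -0.42 and those of 2 to 4 had -0.20. The direction turned in the weakest band, signal 0 to 2, with a median of 0.25 over 87135 distal peaks, and over all peaks it was -0.28. The lower signal of the members was therefore shared by strong peaks of both kinds. In the weakest band the median went the other way, but its quartiles were -0.46 and 1.07, with differences in both directions. The median log2 signal of that band was only 0.84 with saline and 1.25 with dDAVP. Library scaling could not be examined from group means, and its part in these differences was not tested. The fold change in the authors' deposited table is higher than the printed difference by a median of 0.114 among the members (median -0.48 in place of -0.60), and the authors' adjusted p-values belong to that fold change. Among the members the median hardly moved with signal, from -0.60 at 8 to 8.5 to -0.58 above 9.5.

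Only 6 members had higher signal with dDAVP. The largest difference, 0.39, belonged to the peak in intron 1 of Car15 (chr16:17837337-17838583), a carbonic anhydrase held to the cell surface by a lipid anchor. This peak held a listed start and an outer end of Car15 (17838186). The log2 signal there stood at 8.69 under saline against 9.08 under dDAVP. The next, 0.34, was an intergenic peak nearby at chr16:17830241-17831240, whose nearest start in the table belongs to a gene with a RIKEN name. These were the 2 members that the authors called higher (adjusted p of 0.0141 and 0.0213). At the other bound, the lowest members were an intergenic peak assigned to Wdr11 (-1.17) and a peak in intron 1 of Epb41l4b (-1.14). The 2 strong distal peaks outside the window were an intergenic peak assigned to Aqp5 (chr15:99585782-99587989, difference 0.94) and one assigned to Crtc1 (chr8:70447626-70448680, -1.46). The first of these lay 1237 bases past the outer end of Aqp2 (chr15:99579056-99584545), the vasopressin-regulated water channel, and not in Aqp5. At the signal minimum, the members next to it were assigned to Birc5 and to a RIKEN gene (both 8.00), and the peaks just below it to Nefl and Snx2 (both 8.00 after rounding).

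Members were wide. Their median width was 1160.5 bases (quartiles 940 and 1394, range 297 to 2726), against 171 for all distal peaks and 1128 for strong promoter peaks. Signal sums reads over the peak, so width and signal are tied: over all 234060 distal peaks Pearson's r between log2 signal and width was 0.80, and over the 3174 members it was 0.35. These correlations are across peaks of the same libraries and are given as a description. Per kilobase of peak, the median member had 328 units of normalized signal, against 36.5 for all distal peaks and 400 for strong promoter peaks. The widest member, 2726 bases at chr7:118362991-118365716, was an intergenic peak assigned to Syt17, and it was 1 of the 6 members that were not lower with dDAVP (difference 0.06). The widest next to it (2649 bases, chr7:114414333-114416981) carries the gene name Tmppe in the table, which RefSeq places on another chromosome. It held an outer end of Pde3b (chr7:114415222-114537938), and its difference was -0.98. Names of 12 members lie on another chromosome in RefSeq, and 25 names were not found there. The 5 narrowest members were 297 to 374 bases wide, and the narrowest, assigned to Mxd4, had 930.1 units of signal per kilobase.

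**Figure D2:**
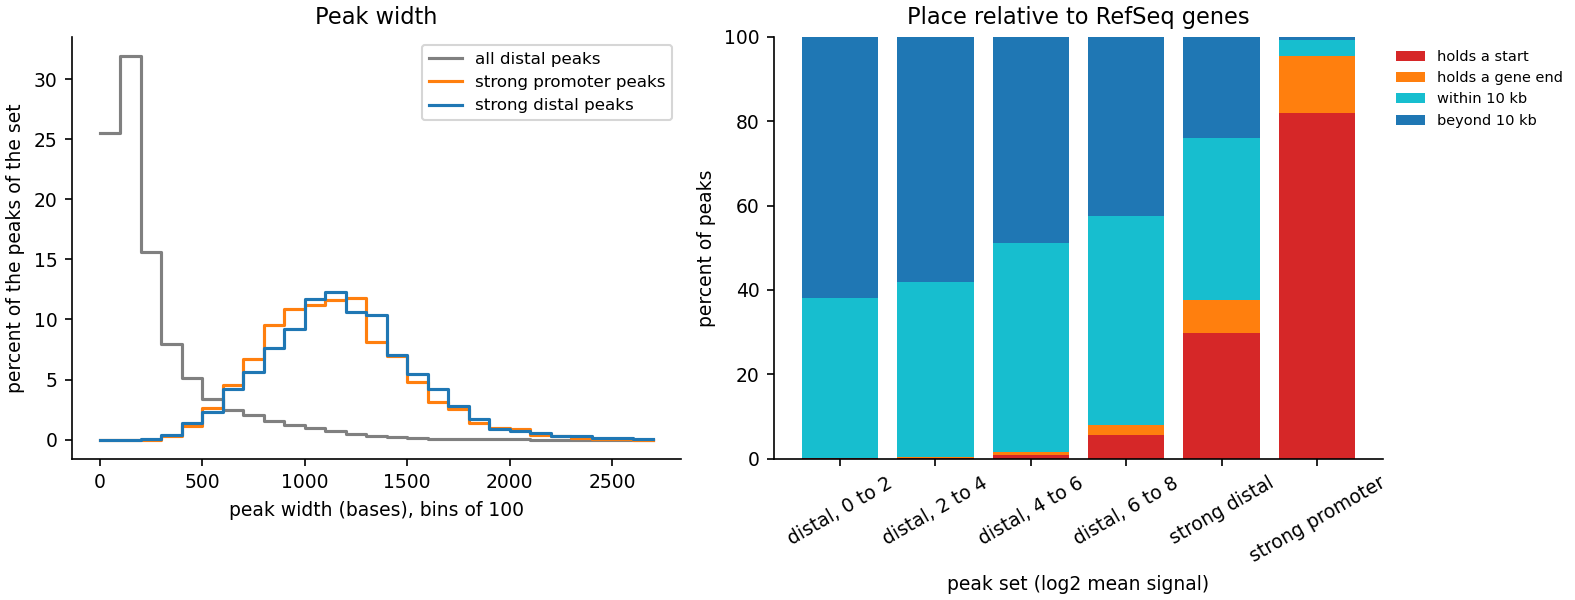
Left, widths of strong distal, strong promoter and all distal peaks in bins of 100 bases, as the percent of each set. Right, the share of peaks that hold a RefSeq start, hold the outer end of a gene, or lie within or beyond 10 kb of either, for distal peaks by mean log2 signal and for strong promoter peaks. The share holding a start or a gene end is largest in the strong sets.

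Place within genes set the members apart from weaker distal peaks. Of the 3174 members, 2163 were in introns and 1011 were intergenic. Of the intron members, 1503 (69.5%) were in the first intron, against 38.2% of all intron peaks. A listed RefSeq start lay inside 944 members (29.7%), while 1.16% of all distal peaks and 5.70% of those of signal 6 to 8 held one. A wider peak holds a start more readily, and the median widths of these sets were 1160.5, 171 and 762 bases. The part of width in this contrast was not tested. A further 254 members (8.00%) held the outer end of a gene. Within 10 kb of a start or gene end lay 1216 members, and 759 (23.9%) lay farther away. Of the members in a first intron, 54.6% held a start. The start table has no entry for 79 members' chromosomes, chromosome 18 among them, and it lacks starts of single genes elsewhere. Outer ends were taken on both sides of a gene, and 155 of the 169 intron members with an outer end were in the first intron. The share with a start is therefore a lower count. The difference with dDAVP varied little by place: the median was -0.62 for members that held a start, -0.64 for those with a gene end, -0.60 within 10 kb and -0.56 beyond 10 kb. By chromosome, the share of distal peaks that were members ran from 0.492% on chromosome X to 1.84% on chromosome 11.

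The strongest members were mostly near gene starts. The strongest of all, with a log2 mean of 10.64, lay on an unplaced contig in intron 1 of Dhrsx. Cic, which encodes the transcriptional repressor capicua, followed at 10.59 with a log2 signal of 10.76 under saline and 10.39 under dDAVP. Kat6b, a histone acetyltransferase, had 10.72 and 10.31, and Rassf7, a Ras-association domain protein, had 10.61 and 10.12. Each of these 3 peaks held a listed start. Beyond 10 kb of a start or gene end, the strongest was the peak at chr5:115542686-115544913, 2228 bases wide, at 10.76 with saline and 10.15 with dDAVP. The table assigns it to Rplp0 by the nearest start, but it lies in intron 1 of Pxn, which encodes the focal adhesion protein paxillin. The peak at chr13:48545423-48546910, assigned to the microRNA gene Mirlet7a-1, was 30584 bases from the nearest listed start or gene end and had 10.56 and 9.97. In intron 2 of Chd9, which encodes a chromatin remodeller, a peak had 10.27 and 9.67. In all, 286 intron members lay in the intron of another gene than the one assigned.

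Several members often went to the same gene. They were assigned to 2545 genes, of which 2116 had 1, 303 had 2 and 126 had 3 or more. Those 126 genes held 452 members, and 17 genes had 5 or more. The members of a gene with 3 or more spanned 6.09 to 282.6 kb, with a median of 43.2 kb. These genes also had more distal peaks of any strength, a median of 42 against 6 over all genes. In 35 of the 126 all members were in the gene's own introns, in 24 all were intergenic, and in 33 at least 1 member held a listed start. A promoter peak was assigned to 97 of them, and it reached a mean signal of 8 in 49. The gene name is that of the nearest start and does not show which gene a peak acts on.

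**Figure D3:**
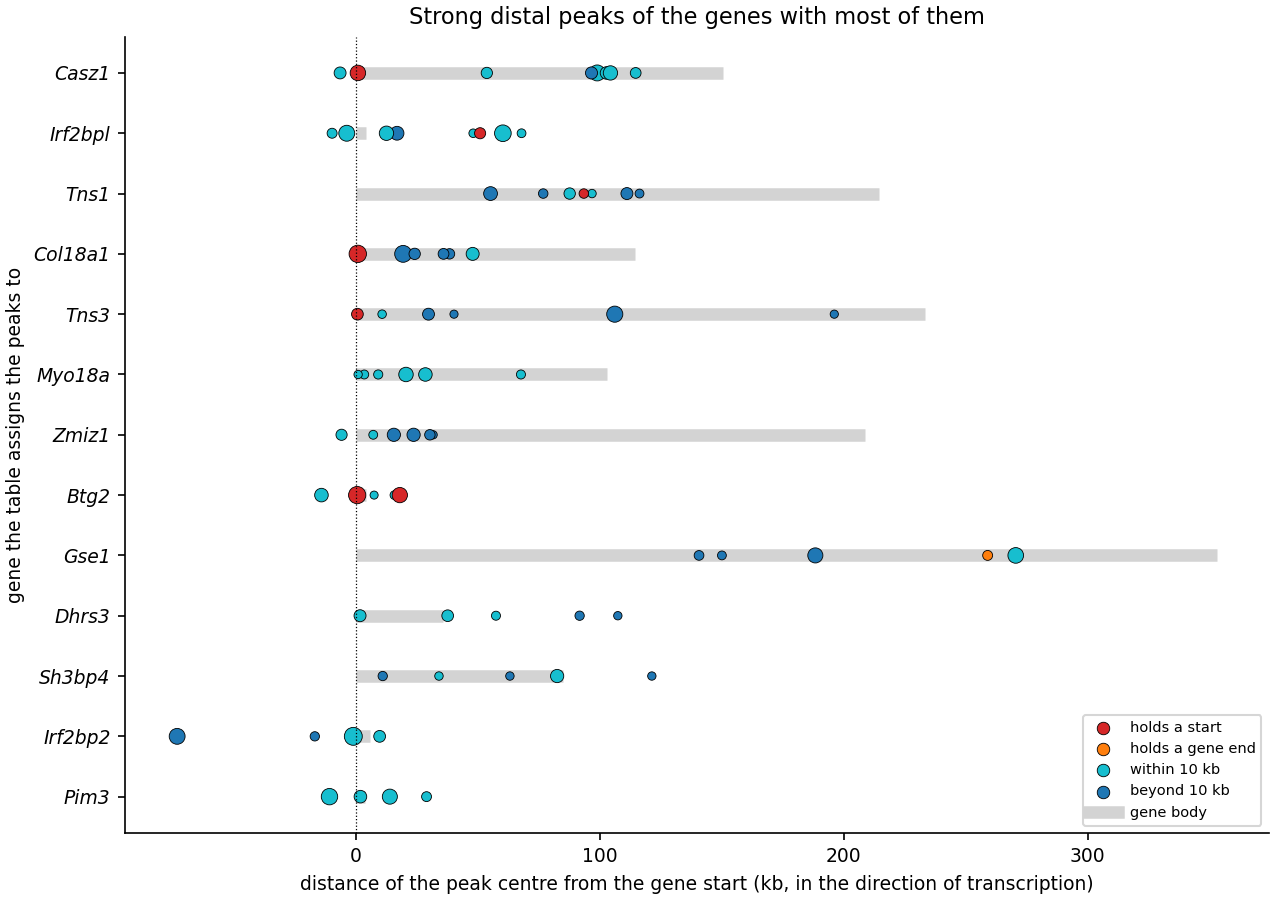
Centres of the strong distal peaks of 13 genes with most of them, in kb from the gene's outer start in the direction of transcription. Grey bars are gene bodies, point area rises with mean signal, and colour gives the place relative to any RefSeq start or gene end. Peaks of Tns1, Col18a1 and Tns3 lie inside the gene, while those of Irf2bpl and Btg2 lie mostly outside it.

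Among the genes with 4 or more members, those that encode regulators of transcription are described first, an order chosen after their values were seen. Casz1, a zinc finger transcription factor, had 8 members over 122 kb (chr4:148797445-148919402), 7 of them in its introns, and 1 of the 8 lay over its start. Their differences ran from -0.78 to -0.49, and the authors called 7 lower. Irf2bpl, a transcriptional regulator of the IRF2BP family, also had 8, all intergenic, over 78.7 kb (chr12:86816230-86894947), with differences of -0.75 to -0.34 and 5 called lower. Its relative Irf2bp2 had 4, all intergenic and all called lower. Zmiz1, a coactivator related to the PIAS proteins, had 6 (chr14:25451438-25489793), of which 3 were called lower. By the intron that holds the peak, or the nearest start for an intergenic peak, Zmiz1 had 8. Btg2, an antiproliferative gene of the immediate early kind, had 5 over 33.1 kb, and its strongest lay over its start with a log2 signal of 10.06 with saline. Cxxc5, a CXXC zinc finger protein, and Gse1, a chromatin-associated protein, had 5 each, and 4 of the 5 were called lower at both. Tfcp2l1, a transcription factor of the collecting duct, had 4 members, 3 in its introns and 1 at chr1:118756029-118757203, all beyond 10 kb of a start or gene end. The authors called 1 of the 4 lower.

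The other genes had similar numbers of members, with 7 at Tns1 and 6 each at Tns3, Col18a1 and Myo18a. Tns1 and Tns3 encode tensins, which join integrins to actin. Tns1 had 7 members (chr1:74007645-74070224) and Tns3 had 6 (chr11:8468113-8664883), all in their own introns, and the authors called 3 and 4 of them lower. The differences at Tns1 ran from -0.75 to -0.26. Col18a1, a basement membrane collagen, had 6 in its introns over 48.8 kb, 5 called lower, and its differences kept to -0.67 to -0.55. Myo18a, an unconventional myosin, had 6, all called lower. Among the rest, Dhrs3, a retinaldehyde reductase, had 5 with 1 called lower, and Sh3bp4, an endocytic adaptor, had 5 with 3 called lower. Trim8 and Ppp1r15b, an E3 ligase and a regulatory subunit of the eIF2-alpha phosphatase, had 5 each. The kinase gene Pim3 had 4. Mir3089, a microRNA gene, had 7 intergenic members over 51.5 kb.

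Over gene lists chosen for the tissue and the treatment, 12.1% of all 21026 genes in the peak table had a member, and the share of each list is read beside that figure with no test. Of 22 genes of principal cell transport and identity, 12 had a member, 22 peaks in all. Among them were Nedd4l, the ligase that removes the sodium channel, with 3, and Hsd11b2, which inactivates glucocorticoid, Kcnj1, a potassium channel, and Nr3c2, the mineralocorticoid receptor, with 2 each. Aqp3, the basolateral water channel, had 1 member in intron 1 (chr4:41095944-41096571, 8.44 with saline and 7.61 with dDAVP). Aqp2, Avpr2 and Scnn1a had none, since the strongest distal peaks assigned to them reached 7.41, 6.08 and 7.17. The strong peak 1237 bases past Aqp2 (log2 mean 9.49) is assigned to Aqp5, and its difference of 0.94 lay outside the window. Of 21 intercalated cell genes, 7 had a member, among them Foxi1, the transcription factor of these cells, with 2 intergenic peaks (-0.78 and -0.64), and Rhcg, an ammonia transporter, with 2. Slc26a4 had none. Of 39 collecting duct transcription factors, 18 had a member. Beside Tfcp2l1, Esrrg had 3, and Gata3, Elf5 and Pax8 had 1 each. The Pax8 member held a start (chr2:24474682-24475840, -0.62).

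The other lists cover signalling, adhesion, the clock and neighbouring cell types. Of 35 genes of cyclic AMP and protein kinase A signalling in the peak table, 10 had a member and none had more than 1. Crem, a cyclic AMP-responsive modulator, had none, and its strongest distal peak reached 3.59. Of 30 Wnt and beta-catenin genes, 10 had a member, with 3 at Wnt7b and 2 each at Cdh1, Ctnna1 and Tle3, while Ctnnb1 had 1. Of 25 tight junction and polarity genes, 10 had a member, with 4 at Pard6b. Of 33 actin and focal adhesion genes, 16 had one, and of 25 immediate early genes 12 had one, with 3 at Ier2 and 2 each at Fos, Jun, Fosb and Nr4a1. Of 18 clock genes 7 had a member, with 3 at Nr1d1. Of 31 growth factor and TGF-beta genes 13 had one, with 4 at Smad6 and 3 at Bmp7, and of 17 polycystin and cilium genes 3 had one. No gene of the proximal tubule list (14 in the table) or of the podocyte, endothelial, stromal and immune list (20 in the table) had a member. Of 14 thick limb and distal convoluted tubule genes only Slc8a1 had 1.

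RNA levels were higher for genes with more members. In the WT mice of the beta-catenin table, the median level was 2.22 TPM over 17923 genes with no member, 21.8 TPM with 1, 29.0 TPM with 2, 50.3 TPM with 3 or 4 and 82.1 TPM with 5 to 8. Of the genes with 3 or more, 78.6% reached 10 TPM, against 37.2% of genes with none. Without the peaks over a start or a gene end, 94 genes had 3 or more, and their median was 51.7 TPM. Genes differ in length and in number of nearby peaks, so this is a description across genes.

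**Figure D4:**
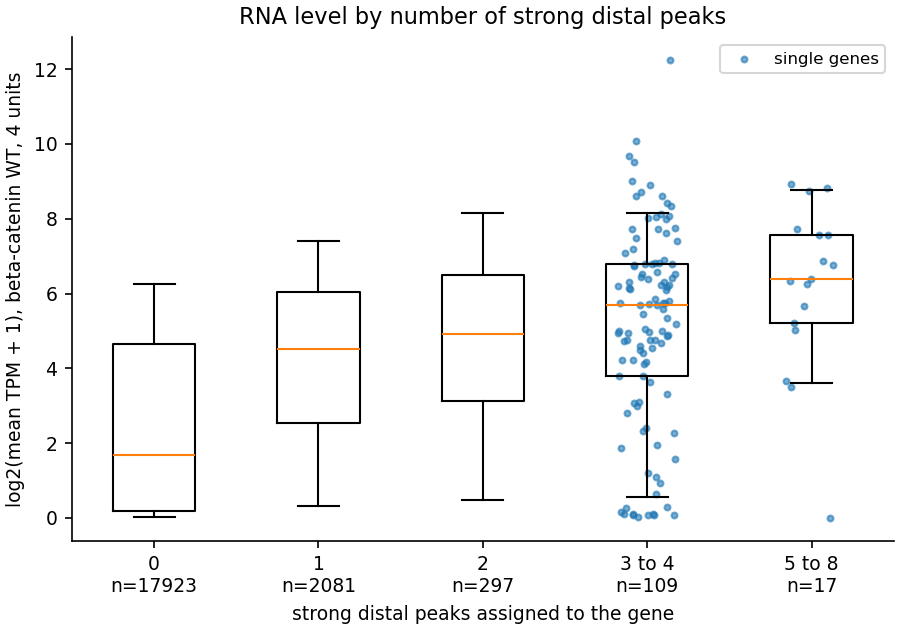
Level of RNA in WT mice of the beta-catenin table (log2 of the mean TPM over 4 units plus 1) by the number of strong distal peaks assigned to the gene. Boxes give the median and quartiles, whiskers the 10th and 90th percentiles, and points the single genes with 3 or more. The medians rise from 2.22 TPM with no such peak to 82.1 TPM with 5 to 8.

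High and low levels were both found among genes with several members. Chosen after their values were seen, the highest of the 126 was Pdzk1ip1, which encodes a small membrane protein, at 4884 ± 472 TPM (SD, n = 4), and 14 of the 126 were below 1 TPM. Of the named genes, Col18a1 had 482 ± 48.0 TPM, Tfcp2l1 481 ± 28.9 TPM and Tns1 211 ± 43.3 TPM. Casz1, with 8 members, had 36.1 ± 4.21 TPM, Tns3 had 11.7 ± 2.11 TPM and Gse1 10.3 ± 2.75 TPM. The number of members did not order these genes by level: Casz1 and Irf2bpl both had 8, and Irf2bpl had 107 ± 23.9 TPM. Col18a1 and Tfcp2l1 differed by less than their SDs. Mir3089 was listed at 0, in a table of long RNA.

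RNA of these genes was next compared between dDAVP and saline. The deposited table lists 5035 genes, filtered by the authors to more than 10 TPM in each library, so a gene that fell below that level is not in it. It holds 1001 of the 2545 genes with a member and 74 of the 126 with 3 or more. Log2(TPM + 1) was compared with limma, and p-values were adjusted over all 5035 genes. In all, 35 genes passed (0.695%), 28 higher (0.556%) and 7 lower (0.139%). Of the 1001, 11 rose and 2 fell, and of the 74 only Ctsh passed. The authors' deposited table has 17 of the 1001 at an adjusted p below 0.05, 11 higher and 6 lower, without Ckmt1 and Wfdc2, where it has 1.03% of all genes listed, 0.716% higher and 0.318% lower. The 13 calls among the 1001 became 2 without dDAVP replicate 3, 5 without saline replicate 2, 6 without saline replicate 1, and 7 each without dDAVP replicate 1 or 4. The median log2 change was -0.24 over the 74 genes, of which 55 (74.3%) were below 0. Over all genes tested the median was -0.06 with 56.4% below 0, and over genes with no member it was -0.05 with 55.6% below 0. By list, 2 of 21 principal cell genes rose and 1 fell, 1 of 19 intercalated cell genes rose and 1 fell, and none of 16 collecting duct transcription factors passed. At an unadjusted p below 0.05 stood 12 of the 74 (16.2%), against 11% of all genes, and the groups did not overlap for 7 of the 74 (9.46%), against 8.6% of all.

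Ctsh, which encodes the lysosomal protease cathepsin H, had 3 members (chr9:90035215-90070616) with differences of -0.53, -0.53 and -0.22. Its level was 247, 341, 258 and 304 TPM with saline and 622, 647, 743 and 516 TPM with dDAVP. All 4 dDAVP libraries were above all saline libraries, with a log2 change of 1.13 ± 0.17 (SE) and an adjusted p of 0.0110 (limma). It was also the only one of the 74 with an adjusted p below 0.05 in the authors' deposited table. The call was lost with eBayes without a trend (adjusted p 0.0565), with the replicate block (0.0825) and without dDAVP replicate 3 (0.0596), and then no gene with 3 or more members passed.

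The other genes that passed had 1 or 2 members, and they are named after their values were seen. Car15 rose from 1863, 1471, 1430 and 1450 TPM to 6693, 7104, 9362 and 7643 TPM, a log2 change of 2.31 ± 0.16 with an adjusted p of 4.82e-05 (limma). It was the only one whose member had higher signal with dDAVP, and that member held a listed start. Aqp3 rose from 3602, 3793, 2900 and 5205 TPM to 7310, 8123, 8381 and 7116 TPM (log2 change 1.03 ± 0.18, adjusted p 0.0241), while its member was lower by 0.83 on the log2 scale. Cdk18, a cyclin-dependent kinase, had 2 members, both over listed starts and both called lower, and its RNA rose from 32.2, 32.6, 47.8 and 19.0 TPM to 178, 177, 126 and 183 TPM. The groups of these 3 genes did not overlap. Of 15 alternative settings, Car15 passed in 15, Cdk18 in 14 and Aqp3 in 7, and the adjusted p of Aqp3 in limma's test reached 0.142 over the 15. Also higher were Stc1, the hormone stanniocalcin 1 (log2 change 2.49), Eva1b (2.43), Ache, acetylcholinesterase (1.87), Prom1, the membrane protein prominin 1 (1.48), Mal2 (1.17), Ldha, a lactate dehydrogenase subunit (0.90), and Wfdc2 (0.87). Of these, Ache and Eva1b passed in 13 of the 15 settings, Prom1, Mal2 and Ldha in 8, Stc1 in 7 and Wfdc2 in 4. Since 99.8% of all members were lower with dDAVP, the direction of a member's signal beside that of its gene's RNA is read no further. Lower RNA was found for Car12, a membrane carbonic anhydrase (1057 ± 240.2 TPM with saline and 523.5 ± 94.2 TPM with dDAVP, SD, n = 4), and Ckmt1, mitochondrial creatine kinase (log2 change -0.81), and their members had differences of -0.49 and -0.56. Car12 passed in 7 of the 15 settings and Ckmt1 in 5. The members of Prom1, Wfdc2 and Car12 also held a listed start.

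**Figure D5:**
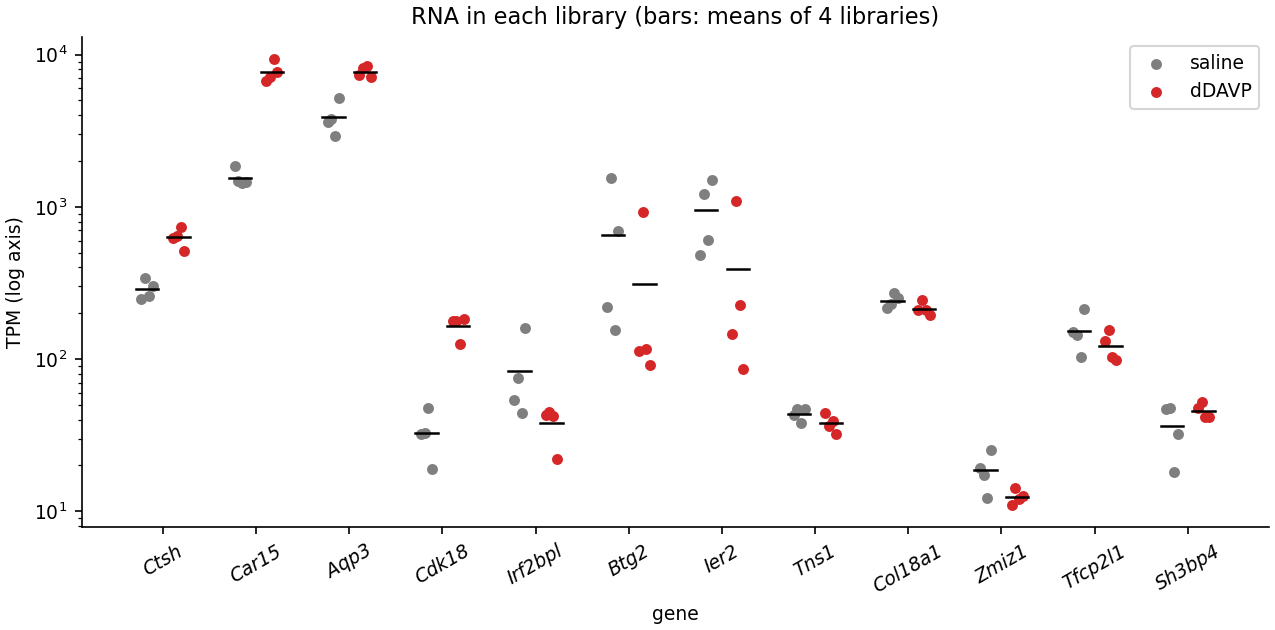
TPM (log axis) of 12 genes with strong distal peaks in each of 4 saline and 4 dDAVP libraries, with bars at the means. The groups do not overlap for Ctsh, Car15, Aqp3 and Cdk18, and they overlap for the other 8 genes, where dDAVP replicate 2 lies far above the other dDAVP libraries for Btg2 and Ier2.

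Most genes with many members did not pass. Tns1 had 42.8, 46.7, 38.0 and 46.7 TPM with saline and 43.9, 36.4, 39.3 and 32.0 TPM with dDAVP, a log2 change of -0.20 ± 0.24. Col18a1 had 218 to 270 TPM with saline and 195 to 244 TPM with dDAVP, and the groups overlapped (adjusted p 0.729, limma). Irf2bpl had 53.6, 75.2, 44.1 and 159 TPM with saline and 42.6, 44.9, 42.5 and 21.9 TPM with dDAVP, a log2 change of -0.98 ± 0.40 with an adjusted p of 0.404. The groups overlapped only between the highest dDAVP library and the lowest saline library. Zmiz1 had 18.6 ± 5.46 and 12.5 ± 1.33 TPM (SD, n = 4), Tfcp2l1 had 153 ± 45.2 and 122 ± 26.5 TPM, and Sh3bp4 had 36.2 ± 13.9 and 45.8 ± 5.00 TPM. A change missed by the test is not shown to be absent, since the groups of 4 vary by this much.

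The immediate early genes varied widely between libraries of the same group. Btg2 had 221, 1544, 155 and 694 TPM with saline and 113, 929, 117 and 91.8 TPM with dDAVP. Fos had 643, 2001, 938 and 2076 TPM with saline and 152, 1715, 96.8 and 60.0 TPM with dDAVP. In dDAVP replicate 2 both were far above the other dDAVP libraries, and so were Ier2, Jun and Junb. With all libraries none of the 12 genes of that list in the table passed, and the median log2 change was -1.55. Without dDAVP replicate 2, Fos (-3.70, adjusted p 0.00496), Jun (-2.96), Junb (-3.31) and Ier2 (-2.58) were lower in limma's test. Each of these passed in 1 of the 15 alternative settings, and Btg2 passed in none. The replicate left out was the one in which these same genes stood apart, so the calls are read no further.

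In the beta-catenin table no gene passed limma's test among 15013 tested (0%), the 112 with 3 or more members included. At an unadjusted p below 0.05 stood 3 of the 112 (2.68%), against 4.55% of all genes. Casz1 had 36.1 ± 4.21 TPM in WT and 36.6 ± 2.94 TPM in MT (SD, n = 4), Col18a1 had 482 ± 48.0 and 482 ± 17.7 TPM, and Tns1 had 211 ± 43.3 and 209 ± 14.0 TPM. Ctnnb1 itself, with 1 member over its start, had 387 ± 11.9 and 383 ± 16.7 TPM, which does not check the mutation, since a changed residue need not change the amount of RNA.

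The tissue label was checked in the RNA tables. Summed over 21 listed principal cell genes, the level was 39635 to 44962 TPM with saline and 77923 to 102625 TPM with dDAVP. Over 19 intercalated cell genes it was 12156 to 15414 and 13962 to 17902 TPM. The median log2 change per gene was 0.058 for the principal and -0.66 for the intercalated cell genes. Neither sum therefore shows a rise shared by the listed genes. Proximal tubule genes, 8 of 15 listed in the table, summed to 794.5 to 15977 TPM with saline and 1581 to 13777 TPM with dDAVP, so their RNA varied between libraries of both groups. Thick limb and distal convoluted tubule genes (4 of 14) summed to 914.8 to 2217 and 555.6 to 5809 TPM, and podocyte, endothelial, stromal and immune genes (4 of 22) to 252.3 to 932.3 and 447.7 to 1429 TPM. Their part in the results was not tested. Saline replicates 3 and 4 had the lowest rank correlation with the other libraries, with medians of 0.813 and 0.778, where the others were at 0.880 to 0.916. In bulk samples fewer cells of a type and less RNA or accessible DNA per cell cannot be told apart.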

How the data were processed

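The authors deposited a peak table of log2 group mean signals and log2 fold changes with p-values adjusted as FDR, per the file headers. The submitters' processing notes name Bowtie2, MACS2, DiffBind, cutadapt 3.4 and mm10. They deposited RNA levels as TPM, and the same notes name STAR and RSEM. The aligner's settings and peak widths' rule are not given in the sources used here. The authors' adjusted p-values for RNA are used only for counts of calls. Depth per library is unknown for each table, so no counting error is given.

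Members, gene lists and named genes were chosen with earlier results of these data known. Named are the 20 genes with most members, a set of collecting duct genes, up to 4 genes of each list, genes with 3 or more members that passed, and peaks at the ends of the signal, width and change ranges. Distances run to 32851 RefSeq start windows and to outer gene ends. A search around peak centres was planned but had no genome here, so motifs were searched in start windows inside peaks.

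TPM were compared on log2(TPM + 1) with limma 3.58.1 in R 4.3.3 (empirical Bayes with trend, Benjamini-Hochberg, adjusted p below 0.05). Genes of mean TPM below 1 were left out. The 3 libraries of a beta-catenin unit were averaged first, and groups were read from titles. On simulated data of the saline and dDAVP design with 5035 genes the step called 42% of changes of log2 1 and 86% of changes of log2 2. Nothing in the labels shows that libraries came from separate animals, so p-values measure the spread between these libraries. The title of dDAVP RNA replicate 4 carries the dDAVP number 3, as the title of replicate 3 does. That library was taken as replicate 4 by its column header. Alternatives covered the bounds of the rule, gene assignment, pseudocount, filter, scaling, trend, replicate block and leaving out each replicate. Some results are not reported here.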

Additional observations from a re-analysis of the deposited data

Results flagged for a closer look

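Of 112 groups of 4 values examined for genes named above, 17 had 1 value far from the other 3. Chance gives about 1 in 20 for separate groups. These genes were chosen with earlier results known and were measured in the same libraries, so the count is not read against that rate. In dDAVP replicate 2, Btg2 stood at 929.3 TPM where the others were 91.8 to 116.7 TPM, Fos at 1715 TPM (60.0 to 151.9 TPM), Ier2 at 1097 TPM (85.6 to 227.9 TPM), Jun at 233.0 TPM (36.5 to 45.0 TPM) and Junb at 1159 TPM (98.6 to 233.9 TPM). Also with dDAVP, Cdk18 had 126.0 TPM in 1 library and Irf2bpl 21.9 TPM in 1 library. With saline, single libraries stood apart for Car15 (1863 TPM), Ckmt1 (1170 TPM) and Eva1b (19.0 TPM, the others 64.0 to 69.2 TPM). In the WT units of the beta-catenin table, single units stood apart for Ctsh (359.4 TPM), Eva1b (76.0 TPM), Kcnj1 (1334 TPM), Mal2 (492.8 TPM) and Wfdc2 (925.2 TPM), and in the MT units for Ier2 (438.3 TPM) and Rhcg (2459 TPM).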

How the results depend on the processing

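The number of members was 5746 with a signal minimum of 7.5 and 1525 with 8.5, 1011 for intergenic peaks alone, and 1976 without peaks over a start or gene end (an alternative chosen after seeing the data). Genes with 3 or more members numbered 407 and 31 at those minimums, 56 from intron and 33 from intergenic peaks alone, with 429 genes at 2 or more and 17 at 5 or more. The median change of members stayed between -0.60 and -0.58 in these alternatives. For dDAVP against saline, 35 genes passed; eBayes without trend gave 18 (4 with a member, 0 with 3 or more) and the replicate block gave 8 (1 and 0). Same-numbered libraries did not deviate together in each pair (correlations -0.15 to 0.23), so the block only pairs numbers. Leaving out each replicate gave 7 to 47 genes in all, 2 to 16 with a member and 0 to 2 with 3 or more, fewest without dDAVP replicate 3. In the beta-catenin table leaving out each unit gave 0 to 5 genes, none with a member. Over the 15 alternatives the log2 change of Pard6b ran from -0.63 to 0.032, with the change of direction without saline replicate 4. Of the 13 genes with members that passed, Car15 passed in all 15 alternatives and Wfdc2 in 4. The planned motif windows of 200 and 500 bases around peak centres were not run. Depth is not given, so its limits cannot be set.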
